A study of Homo sapiens with 6 samples.

Results

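The potassium channel genes of the array are described here: 85 of the 19775 genes with a probe set of their own, chosen by symbol. They were all genes whose platform symbol starts with KCN followed by a family letter of the pore-forming subunits, or that encode one of the auxiliary subunits of such channels, with antisense genes left out. Where a gene had several probe sets, the one of highest mean over the 6 arrays stood for it. The rules for genes and probe sets do not use the groups, but were set with earlier results of these data known. The arrays measured total RNA of H295R/TR SF-1 cells, a single subclone of the human adrenocortical carcinoma line H295R in which doxycycline induces SF-1, a nuclear receptor encoded by NR5A1. Per the labels, 3 arrays were from cells given doxycycline at 1 µg/mL for 72 h (Dox) and 3 from the same subclone without it for 72 h (basal), so both groups carry the inducible construct and the endogenous NR5A1 gene. Arrays are named Dox 1 to 3 and basal 1 to 3 by labelled group and order of deposition, and these numbers are not those of the sample titles. The question for these genes was whether their RNA levels differed when SF-1 was induced.

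Potassium channels let potassium ions leave or enter the cell along their gradient and so set the membrane potential. In the outer zone of the adrenal cortex, leak channels of the two-pore domain family and inward rectifiers keep the membrane strongly negative at rest. Angiotensin II and extracellular potassium depolarise these cells, calcium channels open, and calcium drives aldosterone synthesis. Voltage-gated channels act during electrical activity, and the large-conductance calcium-activated channel, called BK, joins calcium entry to repolarisation.

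Over all probe sets, each of the 6 arrays was closest to an array of the opposite label by the spread of its log2 differences. The SD there of the log2 difference was 0.134 between Dox 1 and basal 1 and 0.149 between Dox 2 and basal 3, against 0.258 to 0.452 between arrays of the same label. Over the 85 channel genes, where Dox 3 was closest to Dox 2, it was 0.133 and 0.163 in these opposite-label pairs, against 0.342 to 0.533 between arrays of the same label. No channel gene differed by over 2-fold within either opposite-label pair, while 1 to 6 did between arrays of the same label. Of all 54613 probe sets, 0 did within either pair and 525 to 2197 did between arrays of the same label. Dox 3 and basal 2 also had a narrower interquartile range of all values (3.38 and 3.32) than the other 4 arrays (3.53 to 3.56), and these are called the narrow and the wide array set. NR5A1 itself had 5.55, 6.21 and 6.41 in Dox 1 to 3, against 5.84, 5.92 and 6.30 in basal 1 to 3. Its difference was 0.03 ± 0.24 over all 6 arrays (SE, n = 3 each). In the 4-array comparison described next it was 0.43 ± 0.13 (SE, adjusted p = 0.0808), and the arrays left out there are the Dox array with the lowest and the basal array with the highest NR5A1 signal. Every result is given over all 6 arrays as labelled and over 4 arrays. The 4-array comparison set Dox 2 and Dox 3 against basal 1 and basal 2, with the array set as a block, and left out Dox 1 and basal 3. That choice rests on these data: each array left out has a near copy that was kept, and the data do not say how the pairs arose or which array of a pair to leave out. The p-values of this comparison are not independent evidence. Its SE draws on the spread of all genes as well as that of the gene itself, as each gene leaves 1 residual degree of freedom. Of the adrenocortical marker genes, 8 of 9 measured lay above the array median in at least 1 array and 5 in all 6 arrays. Their mean level was 8.17 to 8.50 in Dox arrays and 8.13 to 8.68 in basal arrays. Markers of adrenal medulla (2 of 5), endothelial (2 of 4), stromal (3 of 4) and blood cells (0 of 2) lay above it in at least 1 array. In all 6 arrays it was 2, 1, 2 and 0 of them, in that order. Of all 19775 genes, 12390 lay above it in all 6 arrays and 5890 in none. The 4-array comparison called 3 of the 9 adrenocortical genes and no gene of these other lists, against 6.99% of all genes.

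Over all 6 arrays as labelled, no channel gene passed the test of Dox against basal cells. The limma fit called 0 of 85 at an adjusted p under 0.05, as it called 0% of all genes. No member reached an unadjusted p under 0.05 either, the lowest being 0.0583 in KCNJ14, an inward rectifier. The differences ranged from -0.44 in KCNE4 to 0.46 in KCNC1, with a median of -0.02 over the 85 genes and of 0.00 over all genes. The 3 Dox values all lay above the 3 basal values in 1 member (1.18%, against 1.49% of all genes) and all below them in 3 (3.53%, against 1.68%). The 1 higher was KCNJ14, with 5.66, 5.84 and 5.71 in Dox arrays and 5.35, 5.56 and 5.57 in basal arrays. The 3 lower were KCNAB3, KCNJ13 and KCNK10, all of them below the array median in every array. These 4 genes are named because of their values.

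In the 4-array comparison, 9 of the 85 genes differed at an adjusted p under 0.05 (10.6%, against 6.99% of all genes). The 5 higher in Dox cells (5.88%, against 3.42% of all genes) were KCNMB4, KCNK12, KCNC1, KCNA4 and KCND3. The 4 lower in Dox cells (4.71%, against 3.58% of all genes) were KCNJ8, KCNE4, KCNH8 and KCNJ5. The median difference was 0.00 over the members and -0.01 over all genes. The study named cut-offs of a fold change of 2 or more and p under 0.05, without naming an adjustment. With the limma p before adjustment, 3 members were higher (KCNMB4, KCNK12 and KCNC1: 3.53%, against 0.936% of all genes) and 2 lower (KCNJ8 and KCNE4: 2.35%, against 0.592% of all genes). Over all 6 arrays 0 members passed those cut-offs, as did 0% of all genes. The calls depended on the arrays kept and on the block: 0 members were called with Dox 2 and basal 1 left out in place of their near copies. On the same 4 arrays, 0 were called without the array set block (lowest adjusted p of a member 0.248). The style of the sample label was also used as a block. Only basal 1 has its style among the 4, so that fit compares Dox 2 and Dox 3 with basal 2 alone.

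**Figure D1:**
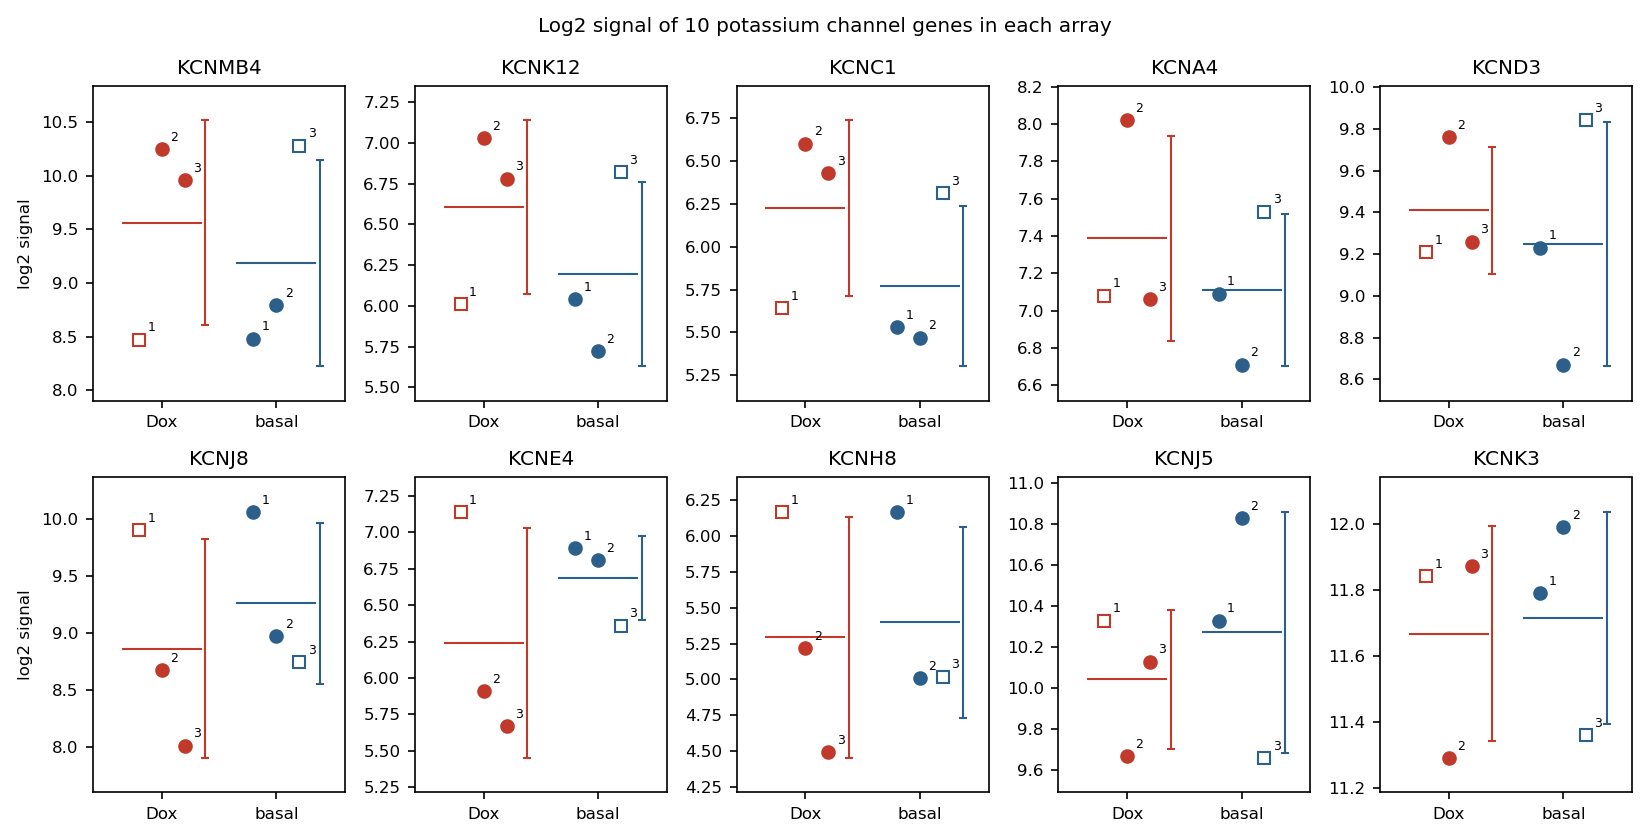
Log2 signal of the 9 called genes and KCNK3 in each array, with Dox arrays on the left (red) and basal arrays on the right (blue), numbered as in the text; each panel has its own scale. Filled circles are the 4 arrays of the 4-array comparison, open squares are Dox 1 and basal 3, lines are means over 3 arrays and bars are SD. Over the 9 called genes the values of Dox 1 and basal 1 differ by at most 0.25, and those of Dox 2 and basal 3 by at most 0.48.

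KCNMB4 had the largest 4-array difference of the 85 genes. It encodes the β4 auxiliary subunit of the BK channel, which slows the gating of the channel and changes its sensitivity to calcium and toxins. Its log2 signal was 8.47, 10.25 and 9.96 in Dox 1 to 3, against 8.48, 8.79 and 10.28 in basal 1 to 3. Dox 2, Dox 3 and basal 3 were high and the other 3 arrays low, so the labelled groups overlapped. The labelled means were 9.56 ± 0.96 in Dox and 9.18 ± 0.97 in basal arrays (SD, n = 3 each), and the exact permutation test of their difference of 0.38 gave p = 1.0, with 0.1 as the lowest p possible for 3 against 3 arrays. In the 4-array comparison KCNMB4 was 2.78-fold higher in Dox cells, a log2 difference of 1.47 ± 0.14 (SE, adjusted p = 7.23e-05), with 1.78 in the wide set and 1.17 in the narrow set. A second probe set of the gene gave 1.48, and the remaining one 0.35, which was not called.

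None of the other BK genes was called by the probe set that stood for it. KCNMA1, which encodes the pore of the channel, had 9.74, 10.08 and 10.09 in Dox arrays, against 9.78, 9.83 and 10.16 in basal arrays. Its 4-array difference was 0.28 ± 0.10 (adjusted p = 0.156). Of its 3 other probe sets, 1 gave 0.63 ± 0.15 (adjusted p = 0.0252 over all probe sets) and lay above the array median in 3 of 6 arrays. The remaining β subunit genes KCNMB1, KCNMB2 and KCNMB3 had 4-array differences of 0.04 to 0.27, none of them called, with 0.20 ± 0.13 for KCNMB3. The median difference of the 4 β subunit genes was 0.23. Among the small-conductance calcium-activated channels, KCNN1 had 0.34 ± 0.13 (adjusted p = 0.169).

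Both called inward rectifiers, of 13, were lower in Dox cells in the 4-array comparison, where 3.58% of all genes were. KCNJ8 encodes Kir6.1, a pore subunit of ATP-sensitive potassium channels, which open when cellular ATP is low. Its log2 signal was 9.90, 8.67 and 8.01 in Dox 1 to 3, against 10.06, 8.97 and 8.74 in basal 1 to 3. Dox 1 and basal 1 were high, Dox 3 was lowest, and the labelled groups overlapped. The labelled difference was -0.40 (exact permutation p = 0.5), and the 4-array difference was -1.17 ± 0.13 (adjusted p = 0.00019), a 2.26-fold lower level in Dox cells. The wide set gave -1.39 and the narrow set -0.96, and a second probe set gave -1.32. ABCC9, which encodes a sulfonylurea receptor that joins this pore, had 4.03, 3.84 and 3.80 in Dox arrays, against 4.49, 4.13 and 4.50 in basal arrays. The labelled groups of ABCC9 did not overlap, but all 6 values were below the array median and neither comparison called it (-0.48 ± 0.13 over 6 arrays with adjusted p = 1.0, and -0.49 ± 0.13 over 4 arrays with adjusted p = 0.0543).

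KCNJ5 encodes GIRK4, a G protein-gated inward rectifier that is mutated in many aldosterone-producing adenomas. Its log2 signal was 10.33, 9.67 and 10.13 in Dox 1 to 3, against 10.33, 10.83 and 9.66 in basal 1 to 3. Dox 2 and basal 3 were low, basal 2 was highest, and the labelled groups overlapped (difference -0.23, exact permutation p = 0.7). In the 4-array comparison KCNJ5 was lower in Dox cells by a difference of -0.68 ± 0.10 (adjusted p = 0.00116), with -0.66 in the wide and -0.70 in the narrow set. Its 6 probe sets all gave negative differences, between -0.97 and -0.05, and 2 of them were called. The names of 3 of these sets mark probes that can cross-hybridise with other transcripts. KCNJ4, which encodes the strong inward rectifier Kir2.3, had 8.80, 7.84 and 7.83 in Dox arrays and 8.70, 7.95 and 7.98 in basal arrays. It was high in Dox 1 and basal 1, and its 4-array difference of -0.49 ± 0.16 was not called (adjusted p = 0.118). The 13 inward rectifier genes had a median 4-array difference of -0.14, and 8 of them were below the array median in every array.

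KCNK3 encodes TASK-1, an acid-sensitive two-pore leak channel of the adrenal cortex. Its log2 signal was 11.84, 11.29 and 11.87 in Dox 1 to 3, against 11.79, 11.99 and 11.36 in basal 1 to 3. Dox 2 and basal 3 were low, the other 4 arrays lay close together, and the labelled groups overlapped (difference -0.04, exact permutation p = 0.8). The 4-array difference of -0.31 ± 0.10 was not called (adjusted p = 0.093), with -0.50 in the wide and -0.12 in the narrow set. Another of its 3 probe sets gave -0.46 ± 0.11 and was called (adjusted p = 0.0303 over all probe sets).

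KCNK12 was the only gene called of the 14 two-pore genes (against 6.99% of all genes). It encodes THIK-2, a leak channel known for little current at the cell surface in expression systems. Its single probe set had 6.01, 7.03 and 6.78 in Dox 1 to 3, against 6.04, 5.72 and 6.82 in basal 1 to 3. Dox 2, Dox 3 and basal 3 were high and the other 3 low, the same arrays as for KCNMB4. KCNK12 was 2.04-fold higher in Dox cells in the 4-array comparison, a log2 difference of 1.03 ± 0.13 (adjusted p = 0.000425), with 0.99 and 1.06 in the wide and narrow sets, and 0.41 over all 6 arrays. The 14 two-pore genes had a median 4-array difference of 0.00, with 8 above the array median in every array and 6 below it in every array.

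**Figure D2:**
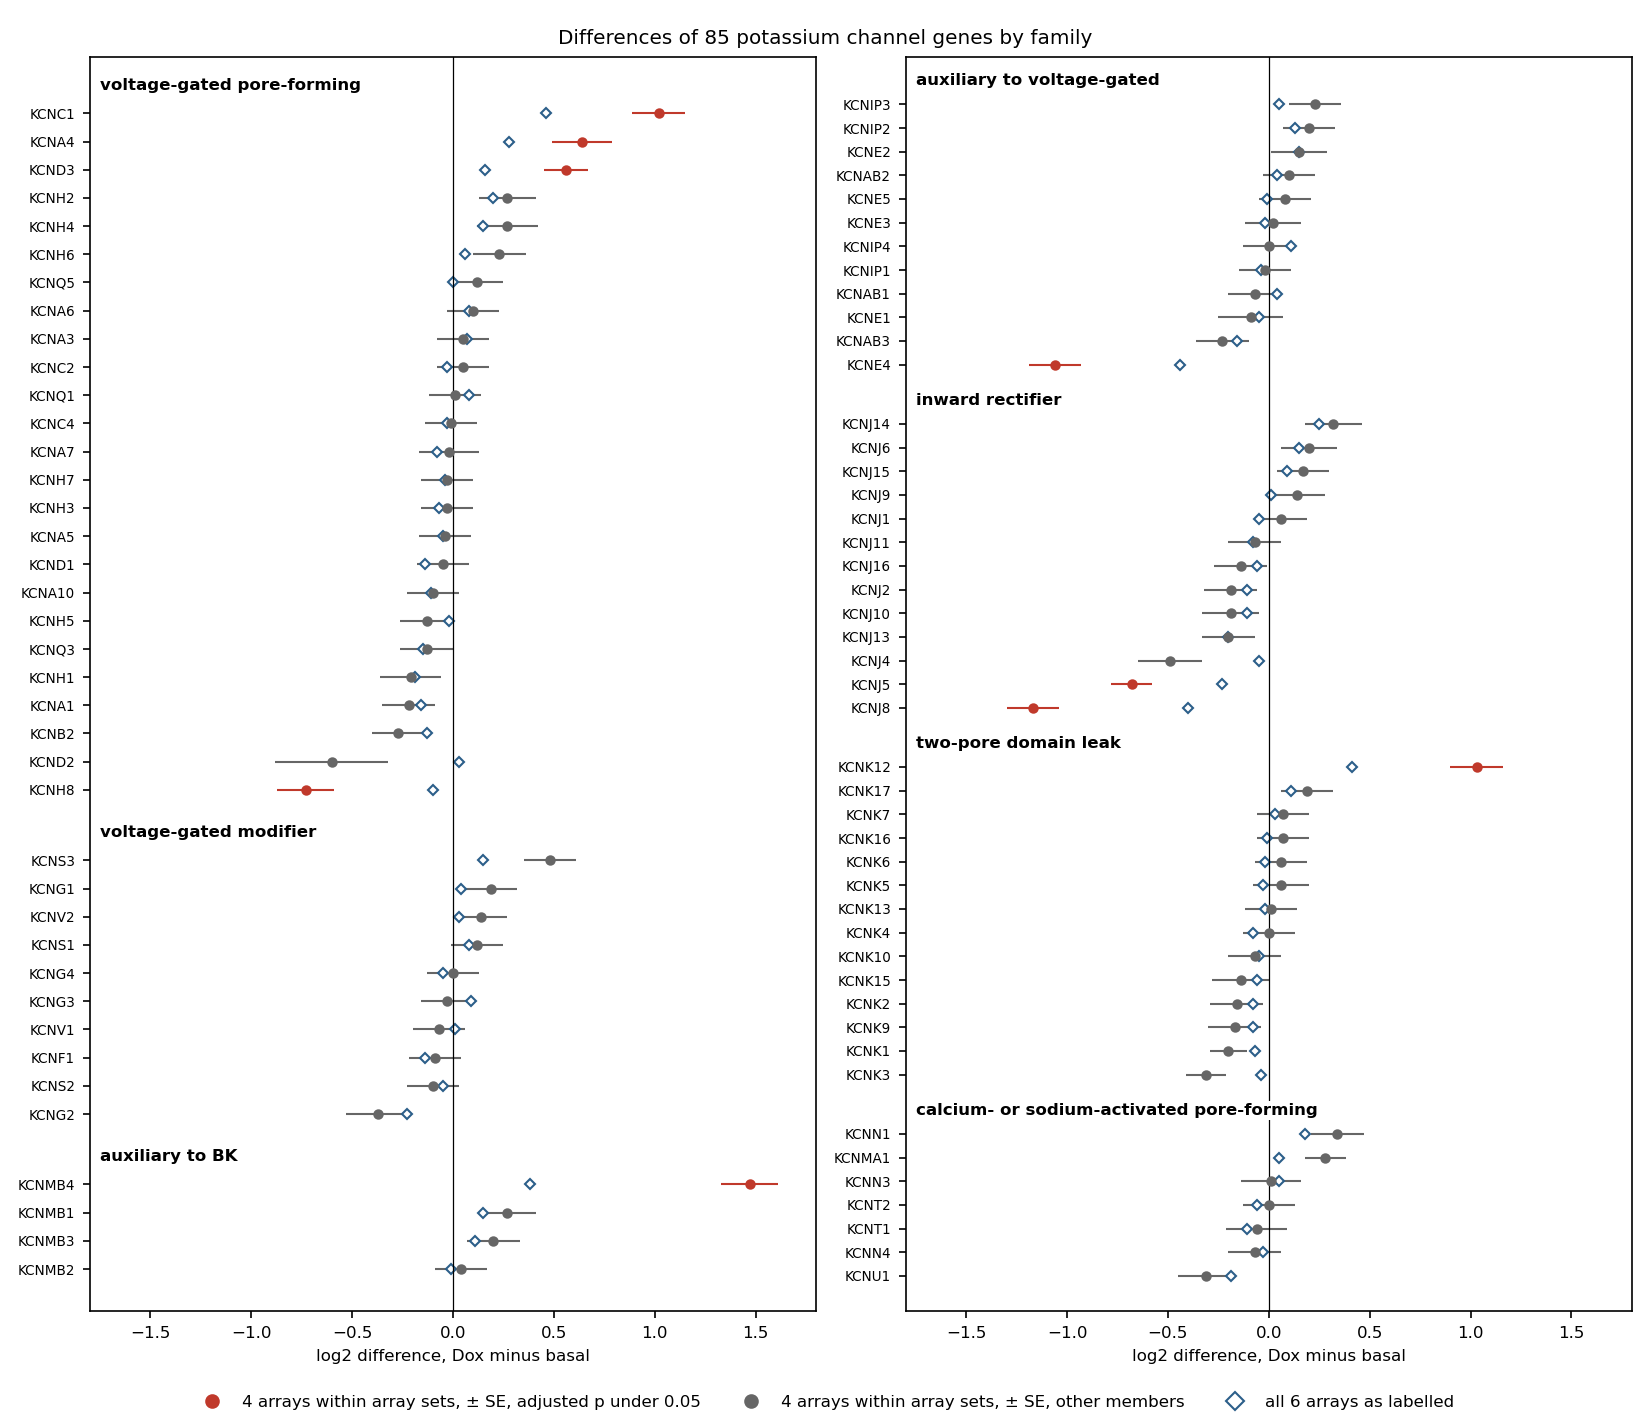
Log2 difference, Dox minus basal, of all 85 genes by channel family. Filled circles with SE bars are the 4-array comparison (red, adjusted p under 0.05, 9 genes; grey, the other 76 genes), and open diamonds are all 6 arrays as labelled, where 0 genes were called. Most genes lie near 0 on both measures, and the open diamonds of the called genes lie closer to 0 than their circles.

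Among voltage-gated pore subunits, 3 genes were higher and 1 lower of 25 in the 4-array comparison, where 3.42% and 3.58% of all genes were. KCNC1 encodes Kv3.1, a channel that opens and closes fast during repetitive firing. It had 5.64, 6.60 and 6.43 in Dox 1 to 3, against 5.53, 5.47 and 6.31 in basal 1 to 3. Again Dox 2, Dox 3 and basal 3 were high, and the low values were near or below the array median. KCNC1 was 2.02-fold higher in Dox cells in the 4-array comparison (log2 difference 1.02 ± 0.13, adjusted p = 0.000477), with 1.08 and 0.96 in the wide and narrow sets. Its other probe set was below the array median throughout and gave 0.34.

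KCNA4 and KCND3 encode Kv1.4 and Kv4.3, channels of the fast inactivating A-type current. KCNA4 had 7.08, 8.02 and 7.06 in Dox 1 to 3, against 7.09, 6.71 and 7.53 in basal 1 to 3. Dox 2 alone was high among the Dox arrays, and Dox 3 lay just below basal 1, so the groups overlapped even among the 4 arrays. The 4-array difference of KCNA4 was 0.64 ± 0.15 (adjusted p = 0.0267), with 0.93 in the wide and 0.35 in the narrow set. KCND3 had 9.21, 9.76 and 9.26 in Dox 1 to 3, against 9.23, 8.67 and 9.84 in basal 1 to 3. Dox 2 and basal 3 were high and basal 2 was low. Its 4-array difference was 0.56 ± 0.11 (adjusted p = 0.00937), with 0.53 and 0.59 in the wide and narrow sets. Its 3 other probe sets gave 0.41, 0.30 and -0.10, none of them called, and the mean of all 4 probe sets (0.29) was not called.

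KCNH8, which encodes a channel of the ELK branch of the ether-a-go-go family, had 6.17, 5.22 and 4.49 in Dox 1 to 3, against 6.17, 5.01 and 5.02 in basal 1 to 3. Only Dox 1 and basal 1 lay above the array median. The 4-array difference of KCNH8 was -0.73 ± 0.14 (adjusted p = 0.00871), with -0.94 in the wide and -0.52 in the narrow set, and Dox 2 lay above basal 2. KCND2, which encodes Kv4.2, was below the array median in all arrays, with 5.18, 3.86 and 3.86 in Dox arrays and 5.29, 3.62 and 3.89 in basal arrays. Its 4-array difference of -0.60 ± 0.28 had opposite signs in the wide (-1.43) and the narrow set (0.24) and was not called (adjusted p = 0.313).

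The modifier subunits, which form no channel of their own but change voltage-gated partners, held no called gene among 10 (against 6.99% of all genes). KCNS3, whose protein Kv9.3 modifies Kv2 channels, came closest. It had 5.88, 6.15 and 6.12 in Dox 1 to 3, against 5.78, 5.52 and 6.41 in basal 1 to 3, with a 4-array difference of 0.48 ± 0.13 (adjusted p = 0.0537). KCNG2, another modifier, had -0.37 ± 0.16 (adjusted p = 0.267), carried by Dox 3 at 5.62 while the other 5 arrays lay between 6.24 and 6.34.

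Of 12 auxiliary subunits of voltage-gated channels, only KCNE4 was called (against 6.99% of all genes). Its single-pass membrane protein suppresses the current of KCNQ1 and some other voltage-gated channels. KCNE4 had 7.14, 5.91 and 5.67 in Dox 1 to 3, against 6.89, 6.81 and 6.36 in basal 1 to 3. Dox 2 and Dox 3 were the lowest arrays and Dox 1 the highest. KCNE4 was 2.08-fold lower in Dox cells in the 4-array comparison, a log2 difference of -1.06 ± 0.13 (adjusted p = 0.000381), with -0.98 and -1.14 in the wide and narrow sets. A second probe set, below the array median, gave -0.64 ± 0.14 and was called too, and the remaining one gave -0.11. KCNIP3, which encodes a calcium-binding partner of Kv4 channels, had 0.23 ± 0.13 (adjusted p = 0.419).

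**Figure D3:**
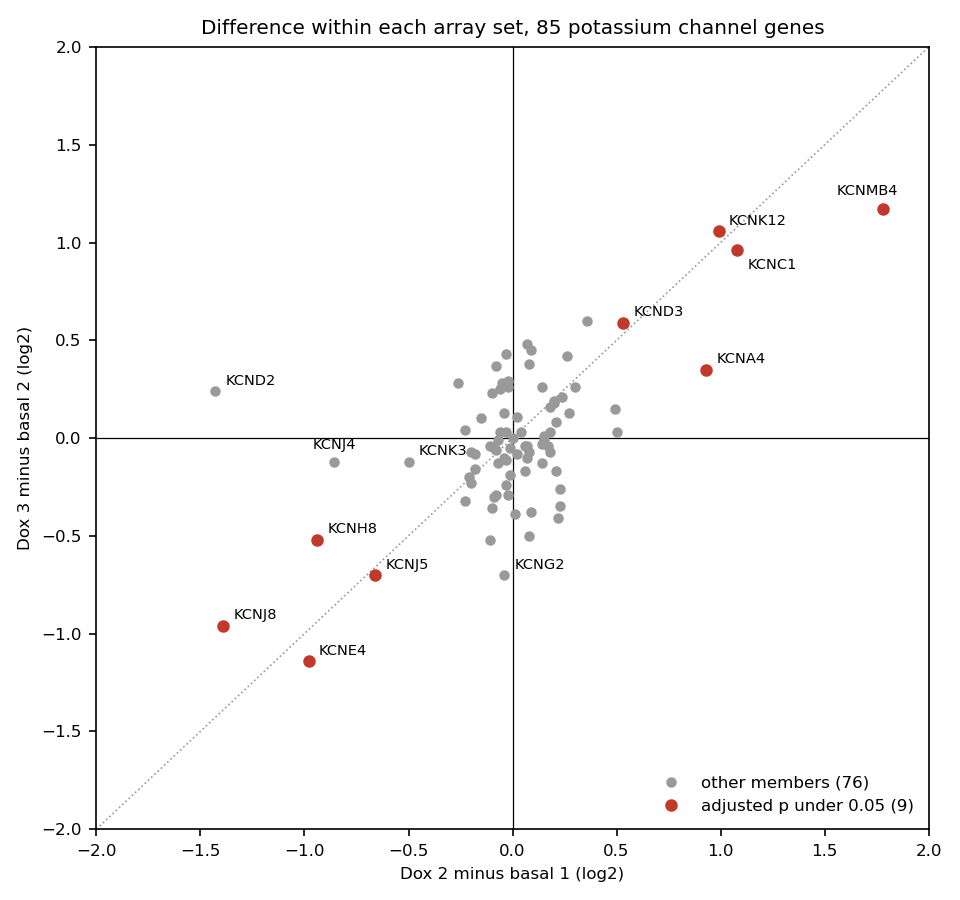
Log2 difference within the wide array set (Dox 2 minus basal 1, horizontal) against that within the narrow array set (Dox 3 minus basal 2, vertical) for the 85 genes, with the dotted line marking equal values. The 9 called genes (red) lie at the upper right and the lower left, and KCND2 has opposite signs, -1.43 and 0.24.

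The 4-array differences came from 1 pair of arrays in each array set. All 9 called genes had the same sign in both sets, which the call itself favours. Over the 85 genes the signs were the same in 52 (61.2%), against 60.9% of all genes. In the pair left out, Dox 1 minus basal 3, all 9 called genes had the opposite sign. Dox 1 is a near copy of basal 1, and basal 3 of Dox 2. That sign therefore follows from the wide-set difference and is not a separate result. In 7 of the 9 the 4 arrays did not overlap between the groups, the exceptions being KCNA4 and KCNH8. The 76 other members had differences of -0.60 to 0.48, with 56 of them within 0.2 of 0 in size. The variation over the 6 arrays was likewise held by few genes: the median range was 0.47, and 12 genes ranged over more than 1 log2 unit, namely the 9 called genes, KCND2, KCNG3 and KCNN3. KCNG3, a modifier subunit gene, followed the array sets, with 6.03, 5.86 and 4.74 in Dox 1 to 3 and 5.87, 4.78 and 5.70 in basal 1 to 3. Its 4-array difference was -0.03.

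Calls were also counted by signal level. Of the 85 genes, 33 lay above the median of their array in all 6 arrays, 41 below it in all 6, and 11 on either side. The 4-array comparison called 7 of the 33, 2 of the 11 (KCNC1 and KCNH8) and 0 of the 41, where it called 9.08%, 12.8% and 1.14% of all genes at these levels, so all genes too were called least often below the median. A signal under the median was not shown to be above background, since the values hold no detection call.

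**Figure D4:**
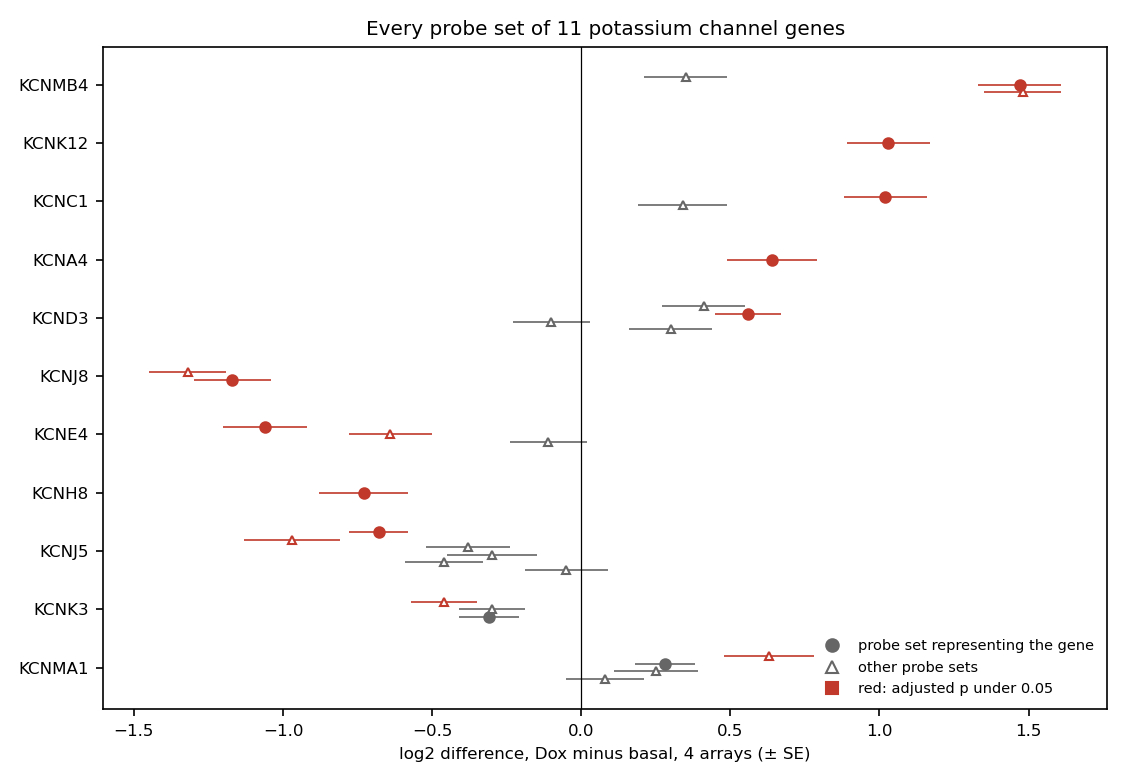
Log2 difference, Dox minus basal, in the 4-array comparison (± SE) for every probe set of the 9 called genes, KCNK3 and KCNMA1. Filled circles represent the gene, open triangles are its other probe sets, and red marks an adjusted p under 0.05 over all probe sets. KCNMB4 and KCNJ8 have 2 red probe sets close to each other, and 1 probe set of KCND3 lies on the other side of 0.

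Genes whose products work with potassium channels were read from a list of 22, of which 19 were measured. In the 4-array comparison 1 was higher and 1 lower in Dox cells, where 3.42% and 3.58% of all genes were. The median difference was -0.03, and over all 6 arrays 0 were called. The higher gene was DPP10, which encodes a Kv4 partner that speeds inactivation, with 10.02, 10.54 and 10.25 in Dox 1 to 3 and 9.91, 9.58 and 10.66 in basal 1 to 3. DPP10 was low in basal 2 and high in Dox 2 and basal 3, as KCND3 was, and its 4-array difference was 0.65 ± 0.10 (adjusted p = 0.00184). The lower gene was SGK1, which encodes a kinase of sodium and potassium handling, with 11.06, 10.24 and 9.67 in Dox 1 to 3 and 11.06, 10.79 and 10.20 in basal 1 to 3. Its 4-array difference was -0.97 ± 0.11 (adjusted p = 0.000166). REST, the repressor of neuronal genes including channels, followed the array sets, with 9.42, 9.43 and 8.79 in Dox arrays, 9.32, 8.71 and 9.46 in basal arrays and a 4-array difference of 0.10 ± 0.11 (adjusted p = 0.742).

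Promoter sequences were read for these genes because the study relates SF-1 and REST binding to gene regulation. RefSeq windows of 300 bases on GRCh38.p14, from 250 before to 50 after the start of a transcript, were found for 66 of the 85 genes (103 windows), 6 of the 9 called genes among them (not KCNMB4, KCNK12 or KCNE4). The windows of 3 called genes that moved are shown, 1 for each, as KCNC1 was the most raised gene with a window and KCNJ8 and KCNJ5 the inward rectifiers that were lower. They are written 5′ to 3′ on the strand of the gene, with CG dinucleotides in capitals.
KCNC1, chr11:17734531-17734830, plus strand: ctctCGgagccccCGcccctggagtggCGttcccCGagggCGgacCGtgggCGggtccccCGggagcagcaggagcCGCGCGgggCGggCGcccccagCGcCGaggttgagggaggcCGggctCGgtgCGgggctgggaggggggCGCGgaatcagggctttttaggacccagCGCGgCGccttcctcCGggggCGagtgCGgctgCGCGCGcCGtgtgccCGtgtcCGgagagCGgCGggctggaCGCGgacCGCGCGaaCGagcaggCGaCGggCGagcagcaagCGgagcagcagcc
KCNJ8, chr12:21774657-21774956, minus strand: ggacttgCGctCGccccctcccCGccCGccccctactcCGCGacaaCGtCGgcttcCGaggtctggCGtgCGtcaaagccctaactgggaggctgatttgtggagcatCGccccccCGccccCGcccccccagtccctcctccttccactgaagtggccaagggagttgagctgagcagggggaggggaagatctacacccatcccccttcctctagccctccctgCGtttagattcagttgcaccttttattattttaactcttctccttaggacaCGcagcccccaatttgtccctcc
KCNJ5, chr11:128891106-128891405, plus strand: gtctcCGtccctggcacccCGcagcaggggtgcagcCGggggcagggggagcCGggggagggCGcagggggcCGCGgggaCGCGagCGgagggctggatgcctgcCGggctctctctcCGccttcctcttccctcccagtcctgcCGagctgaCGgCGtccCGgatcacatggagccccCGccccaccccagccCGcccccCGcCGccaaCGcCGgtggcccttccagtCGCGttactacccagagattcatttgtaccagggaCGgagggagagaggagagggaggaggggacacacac
The KCNC1 window shown holds 44 CG dinucleotides (24 in a second window of this gene), the KCNJ5 window 25 and the KCNJ8 window 16, against a median of 16 over the windows of channel genes and of 14 over all 35116 windows. The GC content was 78.3% for KCNC1 (72.3% in its second window), 72.7% for KCNJ5 and 61.7% for KCNJ8, with medians of 64.3% for channel genes and 58.7% for all windows.

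Motifs were searched on both strands by exact letters. The core site of SF-1, AAGGTCA, was in 3.92% of all windows and in 2 of the 103 windows of channel genes, those of KCND2 and KCNJ16, and in none of the 6 called genes with a window. The left part of the REST element, TCAGCACC, was in 1.67% of all windows and in 4 of the 103, those of KCNH5, KCNH6, KCNJ16 and KCNK3. Its right part, GGACAG, was in 20.5% of all windows and in 27 of the 103. Both parts with 2 bases between them (TCAGCACCNNGGACAG) were in 0.0399% of all windows and in none of the 103. This longer motif contains both parts. The KCNK3 window is shown with both REST parts in capitals because KCNK3 is the leak channel gene with a left part, and that of KCND2 with the SF-1 core in capitals.
KCNK3, chr2:26692472-26692771, plus strand: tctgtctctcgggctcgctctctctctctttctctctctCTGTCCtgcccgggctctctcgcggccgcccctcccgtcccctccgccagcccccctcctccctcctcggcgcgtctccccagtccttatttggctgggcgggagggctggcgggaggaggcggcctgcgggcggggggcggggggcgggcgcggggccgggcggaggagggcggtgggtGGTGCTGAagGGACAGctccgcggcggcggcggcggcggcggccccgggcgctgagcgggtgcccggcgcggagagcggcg
KCND2, chr7:120272925-120273224, plus strand: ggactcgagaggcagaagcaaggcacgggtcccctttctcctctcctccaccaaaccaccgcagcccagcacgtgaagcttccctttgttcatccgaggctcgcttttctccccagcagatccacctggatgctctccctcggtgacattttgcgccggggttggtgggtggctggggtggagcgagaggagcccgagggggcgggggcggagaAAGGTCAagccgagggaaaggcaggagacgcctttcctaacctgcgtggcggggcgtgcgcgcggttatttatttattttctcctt
In KCNK3 the left part lies on the opposite strand of the gene, and the right part occurs 2 times, on either strand. KCND2 holds the core of SF-1 on its own strand, and its 4-array difference had opposite signs in the array sets, as given above. A match describes letters in a window, and binding was not measured by these arrays. The study placed most SF-1 sites distal to genes at either SF-1 level, and windows around a transcript start do not cover such sites. It also reported a larger share of sites near genes and close to transcript starts when SF-1 was overexpressed.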

How the data were processed

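The authors' deposited values are log2 signals, 1 per probe set of a 3′ expression array and per array. GCRMA, a method that corrects background by probe sequence, is named without a version in the submitters' processing notes. Whether all 6 arrays were normalized together was not stated in the sources used here. The log2 values were used without further scaling or filter, since array medians lay between 5.56 and 5.60. The platform annotation gave a single symbol to 41091 of 54613 probe sets, and these were used. The 85 channel genes had 168 probe sets, and 37 genes had a single one.

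Groups were compared in limma 3.58.1 (lmFit, eBayes with a trend) under R 4.3.3 over all 19775 genes, two-sided, with Benjamini-Hochberg adjustment. The 4-array fit left 1 residual degree of freedom per gene, so its SE draws on all genes. The fit was tested on simulated data that held no array set effect and no near-identical arrays, so that test does not bear on these features. Permutation tests used scipy 1.17.1, and figures matplotlib 3.10.9 under Python 3.11.15. The study calls the arrays of a condition biological replicates. The labels name no separate cultures, so p-values may measure technical spread only.

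Named genes were KCNMB4, KCNJ8, KCNJ5 and KCNK3, every called member, the 12 largest 4-array differences and the 2 largest per family among genes above the array median in an array. The members, families, partner and marker lists, 4-array comparison and alternatives were chosen with earlier results of these data known. Alternatives were the variance trend, the mean of probe sets, all probe sets, quantile normalization, a filter, blocks and arrays left out.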

Additional observations from a re-analysis of the deposited data

How the results depend on the processing

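The count of 0 called channel genes over all 6 arrays was 0 under every alternative run, including each array left out. The 4-array count of 9 was 9 without the variance trend, with the mean of probe sets, with quantile normalization and with the filter, and 11 with all probe sets. The background moved too. Of all 19775 genes, 1119 were called without the trend, 1287 with the mean of probe sets and 1491 with quantile normalization, against 1383 as reported. The filter kept 13158 genes and 1439 were called, and of 41091 probe sets fitted together 2137 were called. With the mean of probe sets 8 of the 9 genes were still called, KCND3 being lost (0.29) and KCNS3 gained. With the filter it was 8 of the 9, since KCNH8 did not pass the filter, and KCNS3 was gained. All probe sets fitted together added KCNK3 and KCNMA1 to the 9. The count was 0 without the array set block (lowest adjusted p = 0.248) and 0 with Dox 2 and basal 1 left out instead. These limma fits called 0 of all genes (837 and 112 at an unadjusted p under 0.05). The differences were the same without the block. With label style as the block, basal 1 drops out as the only array of its style among the 4. That fit compares Dox 2 and Dox 3 with basal 2 alone, across the array sets, so only its differences are given. There the 9 kept their sign, with 1.31 in KCNMB4, but -0.63 in KCNJ8 and -0.15 in KCNH8. With the other arrays left out 5 called genes and KCNK3 changed direction: KCNMB4 to -0.32, KCNA4 to -0.05, KCND3 to -0.02, KCNJ8 to 0.10, KCNH8 to 0.32 and KCNK3 to 0.18. These differences average Dox 3 minus basal 2 with Dox 1 minus basal 3, where Dox 1 is a near copy of basal 1 and basal 3 of Dox 2. How the near copies arose was not tested. Leaving out a single array of the 4 leaves the difference within 1 array set, given with each gene. The labelled groups did not overlap in 4 members, in 5 with the mean of probe sets, and in 7 to 16 (8.24% to 18.8%) with 1 array left out, where 7.05% to 12% of all genes did not overlap. Over all arrays but 1, the labelled difference ranged from 0.02 to 0.93 in KCNMB4, from -0.92 to 0.03 in KCNJ8, from -0.54 to 0.05 in KCNJ5 and from -0.22 to 0.15 in KCNK3. The labels give the groups no shared replicate numbers, so no fit had the replicate number as a block, and the array set paired the arrays of the 4-array fit. With 3 arrays a group, and 2 near-identical pairs of opposite labels, precision is limited by the number of arrays.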

Other observations

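The platform holds 12 further genes with a KCN symbol, which are not channel subunits: 9 antisense genes, KCNQ1DN, KCNQ1OT1 and KCNRG. None of the 12 was called in either comparison, where 0% (6 arrays) and 6.99% (4 arrays) of all genes were. KCNQ1OT1, the long noncoding RNA of the imprinted KCNQ1 domain, had 6.11, 6.18 and 6.01 in Dox 1 to 3 and 6.19, 6.16 and 6.28 in basal 1 to 3, with overlapping groups. KCNQ1-AS1 had 4.98, 5.11 and 5.09 in Dox arrays and 4.93, 4.84 and 4.86 in basal arrays, without overlap but below the array median, and its labelled difference was 0.19 ± 0.09 (SE, n = 3 each, adjusted p = 1.0).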
